A study of Homo sapiens with 18 samples.

Results

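The 38 genes described here are ATF4, the transcription factor of the integrated stress response, together with 25 genes placed under it in general knowledge and 12 cytosolic aminoacyl-tRNA synthetases. The rule that lists them names symbols and uses no measured value, although it was written with earlier results of these data known. They are 38 of the 23368 genes in the count tables of the series. By role they fall into 10 stress factors, 8 enzymes of amino acid synthesis, 6 amino acid transporters, 2 further targets and the 12 synthetases. All 38 had reads in each of the 18 libraries, the lowest count being 33, and all 38 passed the filter on low values in each comparison. None was therefore let in only by the group where it was high.

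RNA was sequenced from SJSA-1 cells, a human osteosarcoma line whose MDM2 and CDK4 genes are amplified, as 3 libraries in each of 6 groups. The DMSO group received the solvent alone. Per the labels, the Nutlin group received 20 µM Nutlin, an antagonist that keeps MDM2 from binding p53, for 6 h, while the study's treatment scheme gives another concentration. PD24 cells received 10 µM PD0332991 (Palbociclib, an inhibitor of CDK4 and CDK6) for 24 h, after which the inhibitor was removed for the rest of a 30 h schedule, and PD30 cells kept it for 30 h. N+PD24 and N+PD30 cells received Nutlin during the last 6 h of these schedules. In N+PD24, Nutlin thus acted after the CDK4 inhibitor had been taken away, and in N+PD30 while it was present. All groups are one cell line and carry its amplification. The study asked whether CDK4 inhibition alters the transcription that follows MDM2 inhibition, and whether removal of the inhibitor restores it. The same libraries are used here to describe the amino acid stress genes across the 6 groups.

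When the translation factor eIF2 is phosphorylated by a stress kinase, most translation slows while ATF4 mRNA is translated more. ATF4 protein, paired with C/EBP factors, then binds response elements at genes that import amino acids, make them, charge them onto tRNA, or shape the outcome of the stress. Several targets act back on the pathway, since TRIB3 binds ATF4 and PPP1R15A brings a phosphatase to eIF2. RNA was measured in these libraries, so neither the phosphorylation of eIF2 nor ATF4 protein is in the data.

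Total counts per library lay between 12704845 and 40231041, with a median of 29608936, and replicate 1 of N+PD30 was the shallowest. Levels are CPM, the counts of a gene with each library scaled to its own total, and a log2 change is a log2 fold change between groups. Such values are shares of a library, and fewer cells of a kind and less RNA per cell cannot be told apart in them. The labels of Nutlin and PD30 were checked on target genes of both drugs. MDM2, itself induced by p53, was at 2589 ± 79.7 CPM (mean ± SD, n = 3) in DMSO and 22914 ± 4589 in Nutlin. CCNE2, a target of E2F, was at 78.3 ± 16.1 in DMSO and 0.62 ± 0.11 in PD30. It was low in Nutlin (7.58 ± 2.33) and in PD24 (1.23 ± 0.175) too. The removal of the inhibitor had no clear check of this kind. MCM5, another gene taken as a check on the drugs, was at 17.0 ± 6.20 in PD24, 6.38 ± 1.09 in PD30 and 141 ± 13.8 in DMSO. With Nutlin added, MCM5 was at 5.22 ± 1.44 in N+PD24 and 6.49 ± 1.07 in N+PD30. CCNB1, also such a gene, was at 13.0 ± 1.90 in PD24, 12.2 ± 1.08 in PD30 and 308 ± 10.2 in DMSO. The 7 mesenchymal and osteoblast markers were all detected, and their sum was 7954 to 9779 CPM in DMSO, 10049 to 10344 in Nutlin, 9164 to 10973 in PD24, 7772 to 8497 in PD30, 10124 to 11083 in N+PD24 and 8506 to 10192 in N+PD30. The 7 markers of blood, endothelial and epithelial cells summed to 8.31 to 22.9 CPM, with CD3E, PTPRC and KRT20 at or near 0. That sum was 8.31 to 17.4 CPM in DMSO, 16.6 to 20.8 in Nutlin, 9.57 to 15.1 in PD24, 10.8 to 15.5 in PD30, 17.5 to 22.9 in N+PD24 and 12.6 to 21.7 in N+PD30. Single markers within it moved. CD14 was at 9.11 ± 5.33 CPM in DMSO and 5.42 ± 1.84 in PD30. VWF was at 1.70 ± 0.39 in DMSO, 5.65 ± 1.19 in Nutlin and 6.42 ± 0.81 in PD30. VWF rose with Nutlin (log2 change 1.85, edgeR adjusted p = 0.000111) and in PD30 (log2 change 1.90, edgeR adjusted p = 5.91e-05). The mesenchymal sums of Nutlin and N+PD24 and the other sum of N+PD24 lay above those of DMSO, and their part in the results was not tested.

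CPM values were divided by transcript length to set the genes beside each other. In DMSO, MARS, the methionyl-tRNA synthetase, stood highest, at 1126 ± 102 CPM per kb of transcript (mean ± SD, n = 3), and DDIT3, which encodes CHOP, second at 399 ± 37.8. ATF4 followed at 158 ± 21.9, SLC3A2 at 150.3 ± 12.5 and SLC7A5 at 142 ± 23.0, and these 3 did not differ beyond their spread. At the other end lay DDIT4 at 8.82 ± 4.60, CHAC1 at 1.45 ± 0.51 and VLDLR at 1.22 ± 0.086 CPM per kb. Among the 12 synthetases other than MARS the range was 29.6 ± 0.86 (AARS) to 119.6 ± 12.9 (SARS). MARS (chr12:57869228-57911352), DDIT3 (chr12:57910371-57915520) and SHMT2 (chr12:57623356-57628718, all hg19) lie 230.2, 226.0 and 512.8 kb from CDK4 on chromosome 12. Copy number was not analysed here, and its part in these levels was not tested. MARS and DDIT3 overlap on opposite strands. Counting used a strand setting, but the sources used here do not say whether the kit keeps the strand, so the reads of this pair are uncertain.

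**Figure D1:**
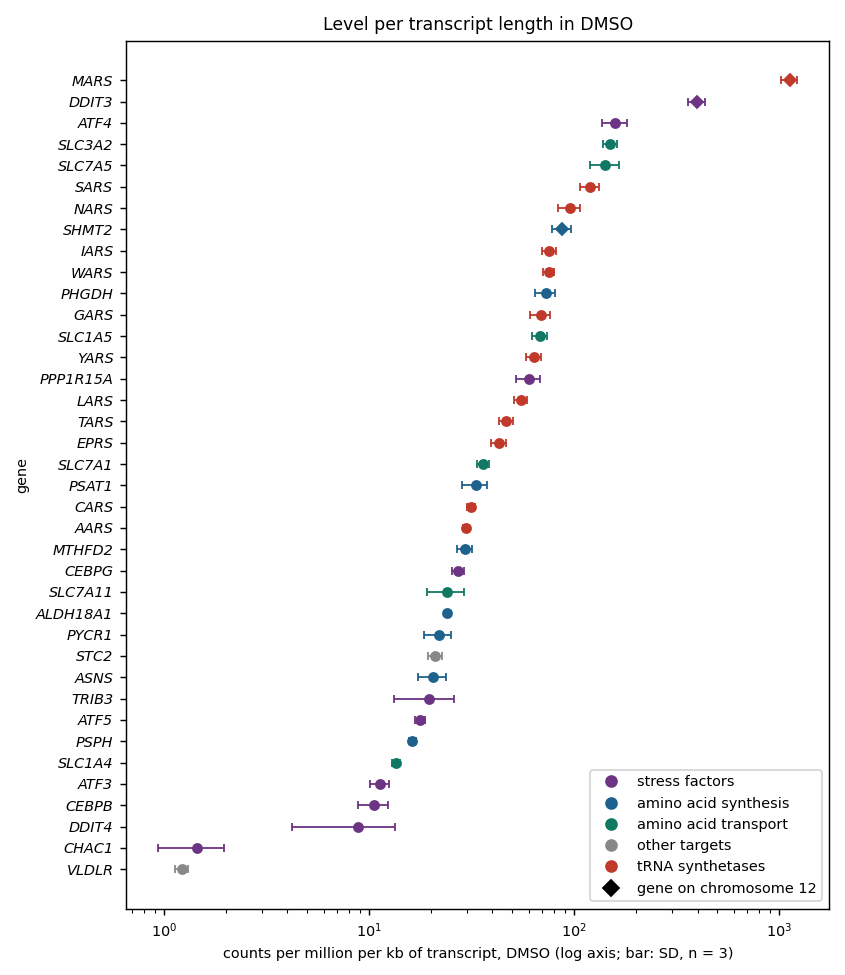
Level of each of the 38 genes in DMSO, in CPM per kb of transcript on a log axis (point, mean; bar, SD, n = 3), coloured by role. MARS and DDIT3, drawn as diamonds with SHMT2 because they lie on chromosome 12, are the 2 highest genes, and CHAC1 and VLDLR are the 2 lowest.

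The response element that ATF4 shares with C/EBP factors has the core letters TGATGNAA, or TTNCATCA on the opposite strand. Both strands of the RefSeq promoter windows (GRCh38.p14, 250 bases before to 50 after each start) were searched for it. A window was at hand for 32 of the 38 genes. Those without one are PSPH, SHMT2, PYCR1, SLC7A11, LARS and YARS. The core was found for 15 of the 32 genes (46.9%) and for 4.46% of all 27305 genes with a window. By single windows it was found in 28.8% of the 52 windows of these genes, and in 3.62% of all 35116 windows. The narrower form TGATGCAA, which is one of the forms of TGATGNAA, was found for 10 of the 32 genes (31.2%) and for 1.08% of all genes. By role, the core was found for 3 of 10 stress factors, 1 of 5 synthesis enzymes, 4 of 5 transporters, neither of the other targets and 7 of 10 synthetases. Most of these genes were listed as known ATF4 targets, so this share is no independent support for that listing. Such a match describes the letters only, and binding was not measured.

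All matches that lie wholly before the start are shown, and they were found for 8 genes. For SLC3A2, SLC7A1, SLC1A4, CARS, MARS, NARS and TARS the core was found only further on, reaching to or past the start. Each line reads 5′ to 3′ on the strand of the gene, and the capitals mark the core or its reverse complement.
ATF3: aaaggtcaggaTGATGGAAggctgtcatat
CHAC1: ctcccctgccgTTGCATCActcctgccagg
CEBPG: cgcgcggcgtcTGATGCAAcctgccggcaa
ASNS: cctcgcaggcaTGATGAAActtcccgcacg
SLC1A5: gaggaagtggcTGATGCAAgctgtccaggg
AARS: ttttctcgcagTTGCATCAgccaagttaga
GARS: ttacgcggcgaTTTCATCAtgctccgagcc
IARS: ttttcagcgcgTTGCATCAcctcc
On GRCh38.p14 these windows are chr1:212565205-212565234 for ATF3, chr15:40953251-40953280 for CHAC1, chr19:33374060-33374089 for CEBPG and chr7:97872458-97872487 for ASNS. SLC1A5 is at chr19:46784893-46784922, AARS at chr16:70289675-70289704, GARS at chr7:30594834-30594863 and IARS at chr9:92293698-92293721. ASNS, SLC1A5, AARS and IARS are on the minus strand and the other genes on the plus strand. Counted from the start, the first base of the core lies at -13 in IARS, -33 in GARS, -42 in CEBPG, -68 in ASNS, -97 in SLC1A5, -187 in AARS, -191 in ATF3 and -209 in CHAC1.

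A gene was called at an adjusted p under 0.05, with the Benjamini-Hochberg adjustment over all genes tested. The test was edgeR's quasi-likelihood test, or limma where N+PD24 is one of the groups, because the N+PD24 values were deposited after division by a size factor. Under Nutlin, 6 of the 38 genes rose and 14 fell, where 26.6% and 28% of all 15766 genes tested did. In PD30 against DMSO, 14 rose and 4 fell (22.9% and 25.4% of all 15125 genes tested). In PD24 against DMSO, 6 rose and 10 fell (17.5% and 20.8% of 15094). Without DMSO replicate 2, only 3 rose in PD24. The share of risers among the 38 thus lay below that of all genes with Nutlin and above it in PD30, and the share of fallers the other way round.

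The direct comparison of PD30 with PD24, which asks what continued CDK4 inhibition did over its removal, had 10 genes higher and 2 lower (12.2% and 12.9% of 15171). Same-numbered PD24 and PD30 libraries deviated together, and with the replicate number as a block the counts were 19 higher and 4 lower. The block raised the calls over all genes too, to 2987 higher and 3120 lower of the 15171. In N+PD30 against Nutlin, 18 of the 38 rose and 2 fell (24.3% and 24.7% of 15721). The 2 falls were PSAT1 and PHGDH, and the count was 1 without N+PD30 replicate 2 or any one Nutlin replicate. In N+PD24 against Nutlin, 12 rose and 6 fell (17.6% and 17.8% of 15262), against 15 and 9 with the replicate block, since these libraries paired as well. With that block, 4221 of the 15262 genes rose and 4105 fell. Scaled by total counts, the same comparison had 8 of the 38 higher and 7 lower, and 2167 and 3217 of all 15262 genes. It had 7 higher without N+PD24 replicate 2, and 3 lower without Nutlin replicate 3. In N+PD30 against N+PD24, 11 were higher and 3 lower (16% and 16.4% of 14945). Here 7 were higher without N+PD30 replicate 2 or N+PD24 replicate 3, and 1 was lower without N+PD24 replicate 2.

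The interaction asks whether the Nutlin effect differed between cells with and without PD0332991, as the log2 fold change of Nutlin with the inhibitor minus that without it. For PD30 it was positive for 9 of the 38 and negative for 0 (12.8% and 7.03% of 16113 genes, edgeR). For PD24 it was positive for 1 and negative for 0 (0.972% and 0.735% of 15642 genes, limma), and that call was absent with edgeR on the recovered reads. With the replicate block it was positive for 3, namely SLC1A4, TRIB3 and SLC7A1 (limma adjusted p = 0.0279, 0.0265 and 0.0211). Of all 15642 genes, 278 were then positive and 201 negative. At an unadjusted p under 0.05, the interaction with PD30 was positive for 15 genes and negative for 0, and that with PD24 positive for 10 and negative for 0. DESeq2 gave 10 and 0 for PD30 at an adjusted p under 0.05. The shares of all genes at an unadjusted p were not counted, here or for the unadjusted counts further on. Those counts therefore cannot be set against the shares given, which are at an adjusted p. For the 38 genes, the median log2 fold change was -0.06 with Nutlin, 0.08 in PD30 and -0.12 in PD24, each against DMSO, where the medians of all genes tested were 0.03, 0.00 and 0.02. It was 0.31 in N+PD30 and 0.12 in N+PD24, each against Nutlin, where the medians of all genes were 0.00 and 0.01. In PD30 against PD24 it was 0.23 (all genes, -0.02), and in N+PD30 against N+PD24 it was 0.12 (all genes, -0.01). These comparisons share libraries with each other, so their values are set side by side and no relation between them was computed. Calls that held without each single library numbered 15 of 20 with Nutlin, 13 of 18 in PD30, 10 of 16 in PD24 and 14 of 20 in N+PD30 against Nutlin. They numbered 8 of 12 in PD30 against PD24, 9 of 18 in N+PD24 against Nutlin and 8 of 14 in N+PD30 against N+PD24.

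**Figure D2:**
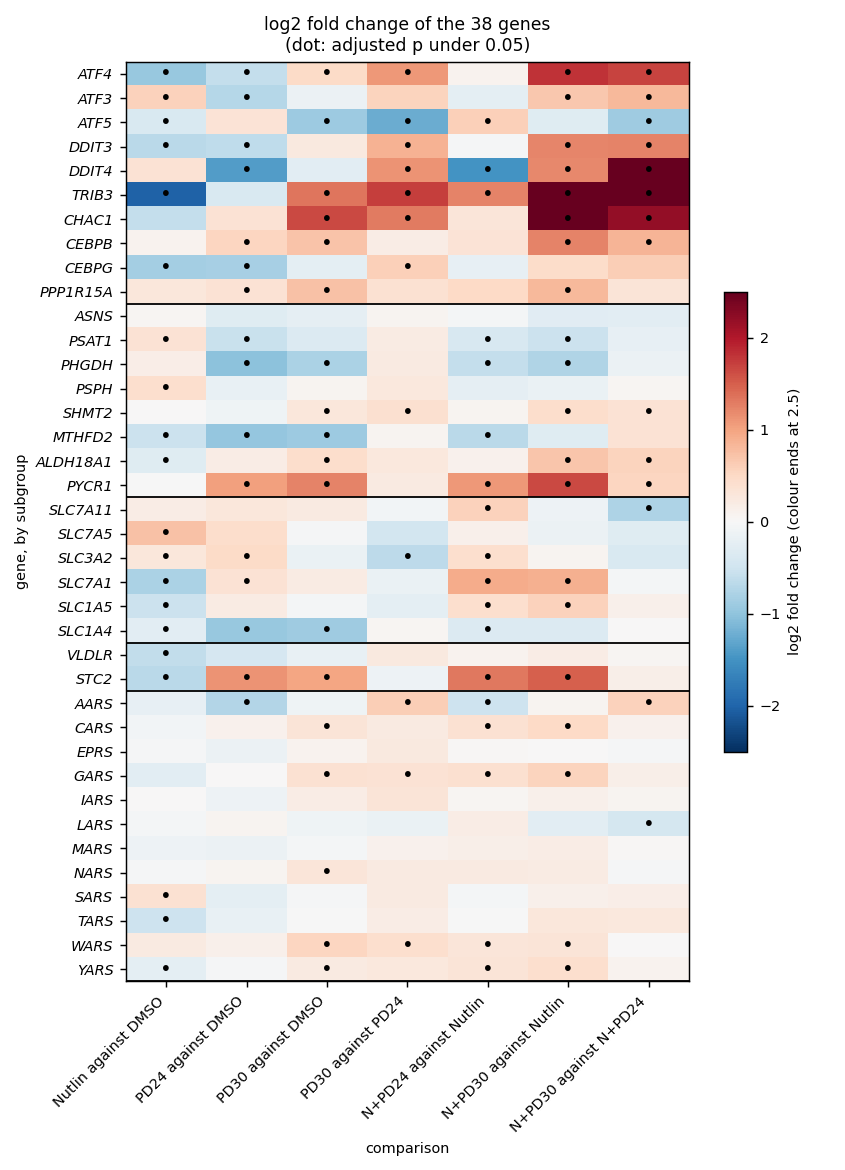
log2 fold change of each of the 38 genes (rows, by role) in the 7 comparisons of 2 groups (columns), red for higher and blue for lower, with a dot at an adjusted p under 0.05. The stress factors at the top carry the deepest colours, TRIB3 from -2.02 with Nutlin to 4.13 in N+PD30 against Nutlin, while ASNS has no dot in any column.

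Of the stress factors, ATF4 and TRIB3 fell with Nutlin and rose in PD30, and ATF5 fell in both. With Nutlin, 1 of the 10 rose and 5 fell (median log2 fold change -0.49), and in PD24, 2 rose and 5 fell (-0.49). In PD30, 5 rose and 1 fell (0.36). On top of Nutlin, 8 rose and 0 fell in N+PD30 (1.22), whereas in N+PD24 against Nutlin 2 rose and 1 fell (0.19). N+PD30 against N+PD24 had 7 higher and 1 lower (1.05), and PD30 against PD24 had 6 higher and 1 lower (0.73). For N+PD30 against Nutlin, edgeR had 9 higher and 1 lower at an unadjusted p under 0.05, and DESeq2 called 8 higher and 0 lower. Of all genes tested, 26.6% rose and 28% fell with Nutlin, 17.5% and 20.8% did in PD24, and 22.9% and 25.4% in PD30. Against Nutlin, 24.3% rose and 24.7% fell in N+PD30, and 17.6% and 17.8% in N+PD24. In N+PD30 against N+PD24 16% were higher and 16.4% lower, and in PD30 against PD24 12.2% and 12.9%.

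ATF4 itself was at 228, 254 and 192 CPM in the 3 DMSO libraries, 106, 101 and 112 in Nutlin and 161, 144 and 131 in PD24. With the inhibitor kept on it was at 269.9, 304 and 381 CPM in PD30 and 302, 388 and 463 in N+PD30, and after its removal at 115, 92.5 and 115 in N+PD24. The PD30 and N+PD30 libraries were all above every other library, and the Nutlin, PD24 and N+PD24 libraries were below every DMSO library. ATF4 fell with Nutlin (log2 change -0.96, SE 0.11, edgeR adjusted p = 6.88e-05) and in PD24 (log2 change -0.60, SE 0.13, edgeR adjusted p = 0.00613). It rose in PD30 (log2 change 0.49, SE 0.14, edgeR adjusted p = 0.0175), a call lost without PD30 replicate 3 (edgeR adjusted p = 0.0582). It was higher in PD30 than in PD24 (log2 change 1.09, SE 0.14, edgeR adjusted p = 0.000968). On top of Nutlin it rose with PD30 (log2 change 1.81, SE 0.15, edgeR adjusted p = 4.33e-06), and in N+PD24 against Nutlin the log2 fold change was 0.08 (limma adjusted p = 0.619). N+PD30 exceeded N+PD24 (log2 change 1.70, SE 0.15, limma adjusted p = 0.00021). The Nutlin effect differed between cells with and without PD30 (log2 difference 1.37, SE 0.22, edgeR adjusted p = 0.00109).

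TRIB3, the pseudokinase that restrains ATF4, had the largest fold change of the 38. It was at 39.0, 63.2 and 36.2 CPM in DMSO, 7.57, 9.79 and 14.04 in Nutlin, 30.7, 36.2 and 37.9 in PD24 and 85.0, 99.8 and 171 in PD30. With both drugs it was at 14.8, 22.7 and 42.6 CPM in N+PD24 and 84.8, 196 and 287 in N+PD30. Nutlin libraries were below all others, and each N+PD30 library was above every DMSO, Nutlin, PD24 and N+PD24 library, though replicate 1 of N+PD30 stood well under the other two. TRIB3 fell with Nutlin (log2 change -2.02, SE 0.25, edgeR adjusted p = 0.000114) and rose in PD30 (log2 change 1.34, SE 0.28, edgeR adjusted p = 0.00329), and in PD24 its log2 fold change was -0.38 (edgeR adjusted p = 0.181). It was higher in PD30 than in PD24 (log2 change 1.72, SE 0.23, edgeR adjusted p = 0.00119). Against Nutlin it rose in N+PD30 (log2 change 4.13, SE 0.38, edgeR adjusted p = 1.32e-05) and, by less, in N+PD24 (log2 change 1.25, SE 0.32, limma adjusted p = 0.0136), and the direct comparison of these groups was called too (log2 change 2.62, SE 0.43, limma adjusted p = 0.00192). Without N+PD30 replicate 1, the shallowest library, the N+PD30 change against Nutlin was 4.48 for TRIB3 and 1.95 for ATF4. The interaction with PD30 was the largest of the 38 (log2 difference 2.83, SE 0.54, edgeR adjusted p = 0.00308). Its counterpart with PD24 was 1.56 (limma adjusted p = 0.0925, or 0.0265 with the replicate block and 0.0347 without N+PD24 replicate 1).

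CHAC1, which encodes an enzyme that breaks down glutathione, was the least abundant stress factor. Its levels were 2.27, 2.95 and 1.39 CPM in DMSO, 1.08, 1.20 and 1.73 in Nutlin, 2.95, 2.66 and 2.76 in PD24 and 4.17, 6.40 and 10.4 in PD30, then 1.39, 1.41 and 2.78 in N+PD24 and 6.53, 14.8 and 20.9 in N+PD30. The PD30 libraries were above all DMSO libraries, and the N+PD30 libraries above all Nutlin and N+PD24 libraries. CHAC1 rose in PD30 (log2 change 1.65, SE 0.36, edgeR adjusted p = 0.00401) and was higher in PD30 than in PD24 (log2 change 1.29, SE 0.30, edgeR adjusted p = 0.0132). It rose in N+PD30 against Nutlin (log2 change 3.36, SE 0.37, edgeR adjusted p = 4.09e-05). Against N+PD24 it was higher in N+PD30 as well (log2 change 2.20, SE 0.34, limma adjusted p = 0.00146), and edgeR on the recovered reads gave 2.81 in place of that limma value, which the pseudocount of 1 CPM holds down for so low a gene. Neither interaction was called, at 1.75 with PD30 (edgeR adjusted p = 0.0548) and 0.01 with PD24 (limma adjusted p = 0.989). The CHAC1 promoter window holds the TTGCATCA shown above.

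DDIT3 encodes CHOP, a factor tied to cell death under lasting stress. It was at 321, 380.4 and 379 CPM in DMSO, 213, 172 and 240.0 in Nutlin, 208, 192 and 289 in PD24, 409.8, 393 and 486 in PD30, 200.5, 159 and 224 in N+PD24 and 448, 489 and 566 in N+PD30. Every library of Nutlin, PD24 and N+PD24 was below every library of DMSO, PD30 and N+PD30. DDIT3 fell with Nutlin (log2 change -0.67, SE 0.12, edgeR adjusted p = 0.00107) and in PD24 (log2 change -0.63, SE 0.14, edgeR adjusted p = 0.00868), and its log2 fold change in PD30 was 0.24 (edgeR adjusted p = 0.0803). It was higher in PD30 than in PD24 (0.87), in N+PD30 than in Nutlin (1.23) and in N+PD30 than in N+PD24 (1.25), with adjusted p-values of 0.00357, 5.15e-05 (both edgeR) and 0.000429 (limma). The PD30 interaction was called (log2 difference 1.03, SE 0.18, edgeR adjusted p = 0.00146). MARS, whose gene overlaps that of DDIT3, was called in none of these comparisons.

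DDIT4 encodes REDD1, an inhibitor of mTORC1. Its libraries were at 20.6, 19.5 and 6.14 CPM in DMSO, where replicate 3 lay far below the others, 19.9, 21.7 and 12.9 in Nutlin, 4.75, 6.75 and 5.79 in PD24 and 10.8, 12.5 and 15.5 in PD30. With both drugs they were at 4.75, 4.85 and 6.57 in N+PD24 and 39.8, 43.7 and 46.2 in N+PD30. The groups with the inhibitor removed had the lowest means and N+PD30 the highest, without overlap between N+PD24 and N+PD30. The gap between these groups was the largest of the 38 in that comparison (log2 change 2.69, SE 0.15, limma adjusted p = 4.44e-05). DDIT4 was lower in N+PD24 than in Nutlin (log2 change -1.50, SE 0.21, limma adjusted p = 0.000519), higher in N+PD30 than in Nutlin (log2 change 1.20, SE 0.19, edgeR adjusted p = 0.000487) and higher in PD30 than in PD24 (log2 change 1.13, SE 0.19, edgeR adjusted p = 0.00333). The fall in PD24 (log2 change -1.40, SE 0.39, edgeR adjusted p = 0.0213) had overlapping groups and was lost without PD24 replicate 1 or 3 or DMSO replicate 1 or 2 (edgeR adjusted p up to 0.0882). Its PD30 interaction (log2 difference 1.51, SE 0.48, edgeR adjusted p = 0.0411) was lost without any one of 8 of the 12 libraries, namely replicates 2 and 3 of N+PD30, 1 and 3 of Nutlin, 1 and 2 of PD30 and 1 and 2 of DMSO (edgeR adjusted p up to 0.104). Without DMSO replicate 3 it was 1.91.

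ATF3, a stress-induced factor of the same family, was the only stress factor called higher with Nutlin. It was at 20.7, 24.8 and 20.7 CPM in DMSO and 35.4, 25.1 and 29.5 in Nutlin, without overlap (log2 change 0.57, SE 0.14, edgeR adjusted p = 0.00717). It was at 14.2, 12.9 and 12.9 in PD24 and 13.6, 19.5 and 27.3 in PD30, and it fell in PD24 (log2 change -0.70, SE 0.13, edgeR adjusted p = 0.00285) while PD30 overlapped DMSO (-0.14, edgeR adjusted p = 0.618). With both drugs it was at 31.8, 19.4 and 21.8 in N+PD24 and 28.7, 51.8 and 66.9 in N+PD30. N+PD30 overlapped both Nutlin and N+PD24, since its replicate 1 was low. The rises in N+PD30 against Nutlin (log2 change 0.67, SE 0.24, edgeR adjusted p = 0.0403) and against N+PD24 (log2 change 0.82, SE 0.28, limma adjusted p = 0.049) were each lost without replicate 2 or 3 of either group (edgeR adjusted p up to 0.136 and limma adjusted p up to 0.165). The second was also lost with no filter on low values. Between N+PD24 and Nutlin, ATF3 was lower in N+PD24 only in the paired fit (-0.24, limma adjusted p = 0.0434 with the block and 0.383 without it).

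ATF5, a relative of ATF4 that is translated in a similar way, moved the other way from ATF4 while the inhibitor was on. It was at 36.0, 33.7 and 37.5 CPM in DMSO, 39.7, 53.5 and 40.1 in PD24 and 18.0, 19.0 and 20.6 in PD30. Its levels were 22.7, 24.9 and 28.3 in Nutlin, 30.9, 39.5 and 40.6 in N+PD24 and 19.4, 22.0 and 22.1 in N+PD30. Libraries with the inhibitor kept on were below all others, with or without Nutlin. ATF5 fell in PD30 against DMSO (log2 change -0.91, SE 0.10, edgeR adjusted p = 5.71e-05) and against PD24 (log2 change -1.25, SE 0.15, edgeR adjusted p = 0.000801), and in N+PD30 against N+PD24 (log2 change -0.89, SE 0.14, limma adjusted p = 0.00149). It fell with Nutlin (log2 change -0.37, SE 0.11, edgeR adjusted p = 0.0144) and rose in N+PD24 against Nutlin (log2 change 0.59, SE 0.13, limma adjusted p = 0.00629). The PD30 interaction was called (log2 difference 0.65, SE 0.15, edgeR adjusted p = 0.00795). Nutlin libraries were below DMSO libraries, while the N+PD30 mean of 21.2 ± 1.56 CPM was above the PD30 mean of 19.2 ± 1.29 (SD, n = 3). The gene overlaps IL4I1 and NUP62 on the opposite strand.

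CEBPB and CEBPG encode C/EBP factors that pair with ATF4. CEBPB was at 21.9, 20.7 and 15.8 CPM in DMSO, 28.3, 29.7 and 25.6 in PD24, 15.8, 20.5 and 20.5 in Nutlin and 45.9, 43.8 and 47.8 in N+PD30. It rose in PD24 (log2 change 0.54, SE 0.15, edgeR adjusted p = 0.0209), although not without PD24 replicate 1 or 2 or DMSO replicate 2 or 3 (edgeR adjusted p up to 0.067). It rose in PD30 (log2 change 0.72, SE 0.15, edgeR adjusted p = 0.00341) and in N+PD30 against Nutlin (log2 change 1.24, SE 0.14, edgeR adjusted p = 5.12e-05) and against N+PD24 (log2 change 0.85, SE 0.18, limma adjusted p = 0.00646). It was called in N+PD24 against Nutlin only in the paired fit (0.34, limma adjusted p = 0.0146 with the block). CEBPG, by contrast, was at 95.3, 109.5 and 100.4 CPM in DMSO and 59.0, 47.1 and 49.7 in Nutlin, and fell with Nutlin (log2 change -0.84, SE 0.11, edgeR adjusted p = 0.00016) and in PD24 (log2 change -0.83, SE 0.11, edgeR adjusted p = 0.000419). PD30 exceeded PD24 for CEBPG (log2 change 0.59, SE 0.15, edgeR adjusted p = 0.0195), a call lost without PD30 replicate 3 or PD24 replicate 2 (edgeR adjusted p up to 0.0533). CEBPG was lower in N+PD24 than in Nutlin in the paired fit alone (-0.21, limma adjusted p = 0.0495 with the block).

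PPP1R15A (GADD34) helps to reverse the phosphorylation of eIF2. It had a mean of 141 ± 19.3 CPM in DMSO, 237 ± 52.8 in PD30 and 285 ± 87.6 in N+PD30 (SD, n = 3 each). It rose in PD30 (log2 change 0.73, SE 0.15, edgeR adjusted p = 0.00333), in PD24 (log2 change 0.35, SE 0.11, edgeR adjusted p = 0.0301) and in N+PD30 against Nutlin (log2 change 0.81, SE 0.24, edgeR adjusted p = 0.0158). The PD24 call was lost without PD24 replicate 2 or 3 or DMSO replicate 1 or 2 (edgeR adjusted p up to 0.134). The N+PD30 groups overlapped with Nutlin, and that call was lost without Nutlin replicate 1 or 2 (edgeR adjusted p up to 0.0614). With the block it was also higher in PD30 than in PD24 (0.38, edgeR adjusted p = 0.0211) and in N+PD24 than in Nutlin (0.50, limma adjusted p = 0.000121).

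**Figure D3:**
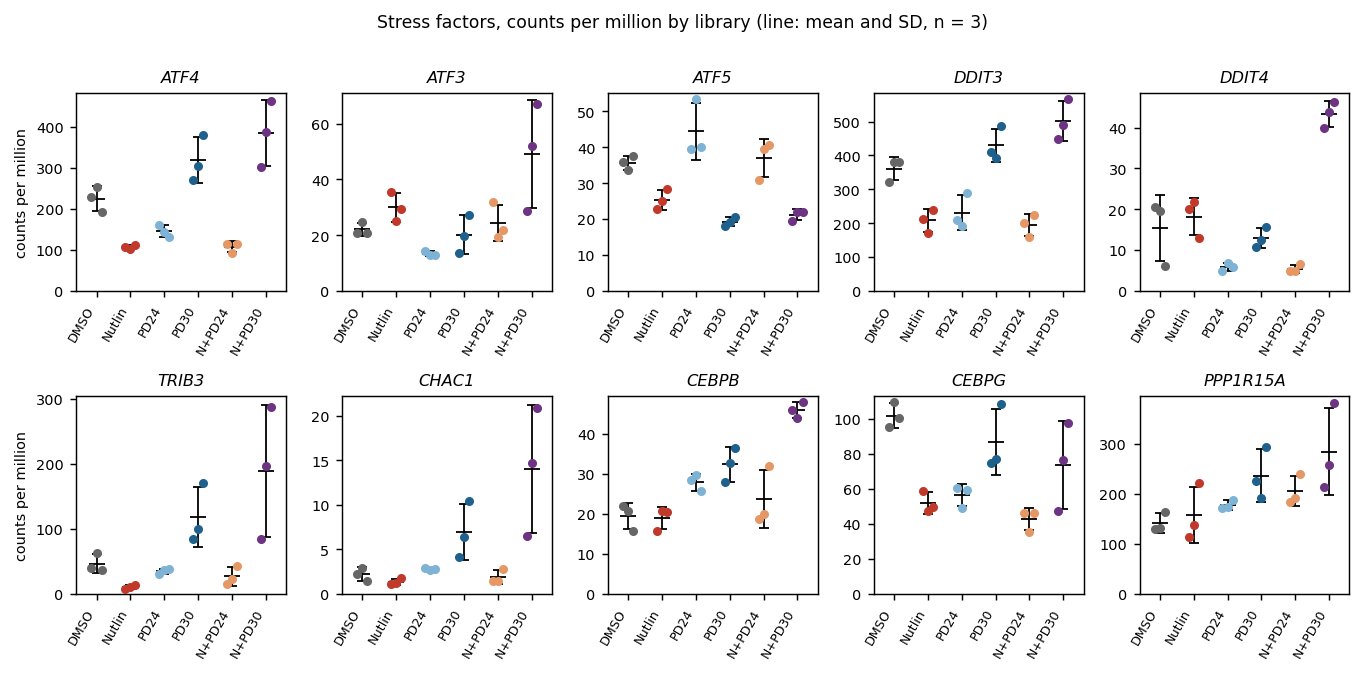
CPM of the 10 stress factors in each library (points) of the 6 groups, with the mean and SD (lines, n = 3), each panel from 0. In ATF4 the PD30 and N+PD30 libraries are above all others, in DDIT4 the N+PD30 libraries stand apart at the top and the PD24 and N+PD24 libraries near the bottom, and ATF5 is lowest in PD30 and N+PD30.

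The 8 enzymes of amino acid synthesis had mixed directions. With Nutlin 2 rose and 2 fell, in PD30 3 rose and 2 fell, and in PD24 1 rose and 3 fell, with median log2 fold changes of 0.03, -0.08 and -0.24. In N+PD30 against Nutlin 3 rose and 2 fell (-0.23), and in N+PD24 against Nutlin 1 rose and 3 fell (-0.13). The median with Nutlin changed its sign under other settings, between -0.09 and 0.11. PD30 against PD24 had 1 higher and 0 lower (0.23), and N+PD30 against N+PD24 3 higher and 0 lower (0.21). At an unadjusted p under 0.05 the last 2 had 3 higher and 0 lower (edgeR) and 4 higher and 0 lower (limma), with the same adjusted counts by DESeq2 and by edgeR on the recovered reads. With Nutlin, 26.6% of all genes rose and 28% fell, so 2 and 2 of the 8 are near those shares. In PD30 22.9% and 25.4% did, and in PD24 17.5% and 20.8%. Against Nutlin, 24.3% rose and 24.7% fell in N+PD30, and 17.6% and 17.8% in N+PD24. PD30 against PD24 had 12.2% higher and 12.9% lower, and N+PD30 against N+PD24 16% and 16.4%.

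ASNS, the asparagine synthetase and a textbook ATF4 target, was called in none of the 9 comparisons. Its libraries were at 40.3, 54.1 and 52.9 CPM in DMSO, 42.1, 48.3 and 49.9 in Nutlin, 36.2, 37.01 and 45.1 in PD24 and 40.0, 42.0 and 45.8 in PD30. N+PD24 libraries were at 39.9, 43.3 and 46.4 and N+PD30 libraries at 33.1, 40.2 and 44.6, so all 6 groups overlapped one another. Its log2 fold change was -0.22 (SE 0.12) in PD30 and -0.29 (SE 0.13) in N+PD30 against Nutlin, with edgeR adjusted p-values of 0.173 and 0.0908. A p that misses the threshold does not show equal levels, but both estimates are below 0 while ATF4 rose in the same libraries. The ASNS window above holds TGATGAAA.

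PHGDH, which starts serine synthesis, was lower with the CDK4 inhibitor. PHGDH was at 119, 148 and 139 CPM in DMSO and 105, 145 and 169 in Nutlin, and at 49.6, 71.5 and 76.2 in PD24, 76.0, 85.1 and 75.9 in PD30, 70.4, 95.7 and 95.2 in N+PD24 and 70.9, 94.1 and 89.7 in N+PD30. None of the 12 libraries with PD0332991 reached the lowest of the 6 without it. PHGDH fell in PD24 (log2 change -1.02, SE 0.16, edgeR adjusted p = 0.00138), in PD30 (log2 change -0.79, SE 0.10, edgeR adjusted p = 0.000184), in N+PD30 against Nutlin (log2 change -0.75, SE 0.17, edgeR adjusted p = 0.00379) and in N+PD24 against Nutlin (log2 change -0.59, SE 0.17, limma adjusted p = 0.0248). The last of these was lost without Nutlin replicate 2 or 3 (limma adjusted p up to 0.0795).

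PSAT1, the enzyme after PHGDH, was at 61.4, 77.7 and 80.1 CPM in DMSO, 81.0, 91.0 and 86.2 in Nutlin, 36.6, 46.6 and 63.1 in PD24 and 38.9, 65.5 and 78.1 in N+PD30. It rose with Nutlin (log2 change 0.36, SE 0.12, edgeR adjusted p = 0.0238) and fell in PD24 (log2 change -0.56, SE 0.19, edgeR adjusted p = 0.0407), where the groups overlapped, in N+PD24 against Nutlin (log2 change -0.39, SE 0.13, limma adjusted p = 0.0393) and in N+PD30 against Nutlin (log2 change -0.54, SE 0.20, edgeR adjusted p = 0.0397). None of these calls held without each single library. The Nutlin call was lost without Nutlin replicate 2 or DMSO replicate 1 and under scaling by total counts, and the PD24 call without replicate 1 or 2 of PD24 or 2 or 3 of DMSO, with edgeR adjusted p-values up to 0.0815 and 0.123. The N+PD24 call was lost without N+PD24 replicate 1 or 2 or Nutlin replicate 2 or 3, and the N+PD30 call without N+PD30 replicate 1 or 2 or any Nutlin replicate and under scaling by total counts, with adjusted p-values up to 0.118 (limma) and 0.121 (edgeR). PSPH, which completes the serine pathway, was at 32.1, 33.3 and 30.7 CPM in DMSO and 38.5, 40.4 and 39.5 in Nutlin and rose with Nutlin (log2 change 0.43, SE 0.10, edgeR adjusted p = 0.00384). It was lower in N+PD24 than in Nutlin with the block (-0.23, limma adjusted p = 0.0373) but not without it (limma adjusted p = 0.111).

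Downstream of serine, MTHFD2, a folate enzyme of mitochondria, was highest in DMSO. It was at 117, 139 and 131 CPM in DMSO, 83.8, 78.7 and 80.3 in Nutlin, 68.4, 55.4 and 71.3 in PD24, 59.7, 73.9 and 75.5 in PD30 and 46.6, 43.9 and 52.9 in N+PD24. All libraries with a drug were below the DMSO libraries, the N+PD30 libraries at 54.5, 70.2 and 77.5 included. MTHFD2 fell in PD24 (log2 change -0.96, SE 0.11, edgeR adjusted p = 0.000257), in PD30 (log2 change -0.90, SE 0.11, edgeR adjusted p = 0.000149), with Nutlin (log2 change -0.54, SE 0.09, edgeR adjusted p = 0.000899) and in N+PD24 against Nutlin (log2 change -0.68, SE 0.10, limma adjusted p = 0.000889). The PD30 interaction (log2 difference 0.63, SE 0.18, edgeR adjusted p = 0.025) was lost without N+PD30 replicate 2, Nutlin replicate 2 or 3, PD30 replicate 1 or DMSO replicate 2 (edgeR adjusted p up to 0.0694). MTHFD2 overlaps SLC4A5 on the opposite strand. SHMT2, which passes the carbon of serine into this folate pathway, had means of 188 ± 19.7 CPM in DMSO, 171 ± 23.5 in PD24, 231 ± 5.36 in PD30 and 242 ± 23.5 in N+PD30 (SD, n = 3 each).

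SHMT2 rose by small amounts in PD30 (0.29, edgeR adjusted p = 0.0241) and in N+PD30 against Nutlin (0.44, edgeR adjusted p = 0.0117), and was higher in PD30 than in PD24 (0.40, edgeR adjusted p = 0.0317) and in N+PD30 than in N+PD24 (0.35, limma adjusted p = 0.0336). Each of the 4 calls was lost without some single libraries. These were PD30 replicates 1 and 2 and DMSO replicate 1 for the first, N+PD30 replicate 2 and Nutlin replicate 2 for the second, all PD30 replicates and PD24 replicate 1 for the third, and all but N+PD30 replicate 1 for the last. The highest adjusted p-values were then 0.0663, 0.0556, 0.0856 (edgeR) and 0.136 (limma). SHMT2 overlaps NDUFA4L2 on the opposite strand.

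The proline enzymes ALDH18A1 and PYCR1, the first and the last of that pathway, rose with the inhibitor kept on. PYCR1 was at 53.6, 54.1 and 40.9 CPM in DMSO, 36.5, 48.4 and 50.6 in Nutlin, 92.7, 122 and 82.9 in PD24, 118, 138 and 101 in PD30, 82.3, 109 and 85.1 in N+PD24 and 161, 156 and 119 in N+PD30. All 12 libraries with PD0332991 were above all 6 without it, whether the inhibitor had been removed or not. PYCR1 rose in PD24 (log2 change 1.03, SE 0.18, edgeR adjusted p = 0.00202), in PD30 (log2 change 1.25, SE 0.15, edgeR adjusted p = 0.000107), in N+PD24 against Nutlin (log2 change 1.09, SE 0.15, limma adjusted p = 0.000639) and in N+PD30 against Nutlin (log2 change 1.66, SE 0.17, edgeR adjusted p = 2.86e-05). It was higher in N+PD30 than in N+PD24 (log2 change 0.54, SE 0.17, limma adjusted p = 0.0349), which was lost without N+PD30 replicate 1 or 2 or N+PD24 replicate 1 or 3 (limma adjusted p up to 0.112), and higher in PD30 than in PD24 in the paired fit alone (0.23, edgeR adjusted p = 0.034 with the block, 0.372 without).

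ALDH18A1 had means of 80.5 ± 2.19 CPM in DMSO, 59.8 ± 4.73 in Nutlin, 111 ± 10.3 in PD30, 62.0 ± 8.98 in N+PD24 and 99.5 ± 6.38 in N+PD30 (SD, n = 3 each). It rose in PD30 (log2 change 0.45, SE 0.09, edgeR adjusted p = 0.00277), in N+PD30 against Nutlin (log2 change 0.69, SE 0.13, edgeR adjusted p = 0.00125) and against N+PD24 (log2 change 0.56, SE 0.14, limma adjusted p = 0.0143), and fell with Nutlin (log2 change -0.30, SE 0.10, edgeR adjusted p = 0.0247). The N+PD24 comparison lost its call without N+PD30 replicate 2 or N+PD24 replicate 2 or 3 (limma adjusted p up to 0.08). The Nutlin call was lost without replicate 2 or 3 of Nutlin or 1 or 2 of DMSO (edgeR adjusted p up to 0.0767). In PD30 against PD24 it was called with the block only (0.27, edgeR adjusted p = 0.021).

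The transporters that bring amino acids into the cell shared no direction. With Nutlin 2 of the 6 rose and 3 fell (median log2 fold change -0.04), in PD30 0 rose and 1 fell (-0.04), and in PD24 2 rose and 1 fell (0.33). On top of Nutlin 4 rose and 1 fell in N+PD24 (0.43), and in N+PD30 against Nutlin 2 rose and 0 fell (-0.03). The medians in PD30 and in N+PD30 against Nutlin changed sign under other settings. PD30 against PD24 (edgeR) and N+PD30 against N+PD24 (limma) each had 0 higher and 1 lower, as they did with DESeq2 and with edgeR on the recovered reads. At an unadjusted p under 0.05 they had 0 higher with 3 and 2 lower. Of the other zero counts, PD30 had 1 higher with DESeq2 or unadjusted, and N+PD30 against Nutlin had 0 lower with DESeq2 and 1 unadjusted. All genes tested rose in 26.6% and fell in 28% with Nutlin, in 22.9% and 25.4% in PD30, and in 17.5% and 20.8% in PD24. Against Nutlin, 17.6% rose and 17.8% fell in N+PD24, and 24.3% and 24.7% in N+PD30. PD30 against PD24 had 12.2% higher and 12.9% lower, and N+PD30 against N+PD24 16% and 16.4%.

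SLC7A11, the cystine carrier, and SLC7A5, the carrier of large neutral amino acids, both work as pairs with the heavy chain SLC3A2. SLC7A5 was at 751, 649.7 and 542 CPM in DMSO and 793, 1161 and 1001 in Nutlin, without overlap, and rose (log2 change 0.73, SE 0.16, edgeR adjusted p = 0.00295). It was lower in PD30 than in PD24 with the block only (-0.46, edgeR adjusted p = 0.000866 against 0.0808 without it). SLC3A2 was at 372, 446 and 352 CPM in PD24 and 249, 286 and 232 in PD30, lower in PD30 without overlap (log2 change -0.65, SE 0.13, edgeR adjusted p = 0.00849). It rose in PD24 (log2 change 0.49, SE 0.12, edgeR adjusted p = 0.0134), lost without DMSO replicate 3 (edgeR adjusted p = 0.0525). It also rose in N+PD24 against Nutlin (log2 change 0.43, SE 0.13, limma adjusted p = 0.025), which was lost without N+PD24 replicate 2 or Nutlin replicate 1 (limma adjusted p up to 0.13), with no filter on low values and under scaling by total counts. Its rise with Nutlin (log2 change 0.29, SE 0.11, edgeR adjusted p = 0.0459) had overlapping groups. That call was lost without replicate 2 or 3 of either group (edgeR adjusted p up to 0.17), with DESeq2, with no filter and under scaling by total counts.

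SLC7A11 libraries were at 218, 277 and 235 CPM in Nutlin, 282, 376 and 379 in N+PD24 and 133, 280.5 and 279 in N+PD30, where replicate 1 was again the low one. It was higher in N+PD24 than in Nutlin (log2 change 0.57, SE 0.14, limma adjusted p = 0.0108), lost without N+PD24 replicate 2 (limma adjusted p = 0.0644). It was lower in N+PD30 than in N+PD24 (log2 change -0.77, SE 0.25, limma adjusted p = 0.0423), lost without N+PD24 replicate 2 or 3 (limma adjusted p up to 0.121), with no filter and under scaling by total counts.

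The remaining carriers fell with Nutlin. SLC7A1, which carries arginine and lysine, had means of 264 ± 16.8 CPM in DMSO, 139.7 ± 24.9 in Nutlin, 253 ± 40.7 in N+PD24 and 266 ± 48.3 in N+PD30 (SD, n = 3 each). It fell with Nutlin (log2 change -0.80, SE 0.11, edgeR adjusted p = 0.000253) and rose on top of Nutlin in N+PD24 (log2 change 0.93, SE 0.14, limma adjusted p = 0.000875) and N+PD30 (log2 change 0.89, SE 0.15, edgeR adjusted p = 0.000716), where both schedules overlapped the DMSO libraries. The PD30 interaction was called (log2 difference 0.72, SE 0.18, edgeR adjusted p = 0.012). Its small rise in PD24 (log2 change 0.37, SE 0.09, edgeR adjusted p = 0.0112) was lost without DMSO replicate 2 (edgeR adjusted p = 0.068). SLC1A5, the glutamine carrier ASCT2, fell with Nutlin (log2 change -0.53, SE 0.09, edgeR adjusted p = 0.000995) from 196 ± 17.0 to 124 ± 8.24 CPM. It rose in N+PD30 against Nutlin (log2 change 0.57, SE 0.12, edgeR adjusted p = 0.0022), and its PD30 interaction was called (log2 difference 0.66, SE 0.14, edgeR adjusted p = 0.00554). The rise in N+PD24 against Nutlin (log2 change 0.42, SE 0.12, limma adjusted p = 0.0245) had overlapping groups and was lost without N+PD24 replicate 2 or 3 or Nutlin replicate 1 or 2 (limma adjusted p up to 0.099), with no filter and under scaling by total counts. SLC1A5 was lower in PD30 than in PD24 with the block only (-0.25, edgeR adjusted p = 0.0231).

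SLC1A4 (ASCT1), which carries alanine, serine and cysteine, had every drug-treated library below the DMSO libraries. It was at 64.4, 58.9 and 62.6 CPM in DMSO, 31.0, 31.6 and 32.7 in PD24 and 35.03, 34.1 and 31.7 in PD30, and at 50.4, 43.4 and 47.3 in Nutlin, 33.4, 35.7 and 35.5 in N+PD24 and 41.3, 38.7 and 34.2 in N+PD30. SLC1A4 fell in PD24 (log2 change -0.94, SE 0.09, edgeR adjusted p = 8.67e-05) and in PD30 (log2 change -0.90, SE 0.09, edgeR adjusted p = 2.79e-05). Its fall with Nutlin (log2 change -0.27, SE 0.09, edgeR adjusted p = 0.0323) was lost without any one of the libraries except Nutlin replicate 1 (edgeR adjusted p up to 0.117), and that in N+PD24 against Nutlin (log2 change -0.35, SE 0.10, limma adjusted p = 0.0248) without replicates 2 or 3 of N+PD24 or 1 or 3 of Nutlin (limma adjusted p up to 0.0842). Both interactions were called, with PD30 (log2 difference 0.60, SE 0.14, edgeR adjusted p = 0.0113) and with PD24 (log2 difference 0.54, SE 0.12, limma adjusted p = 0.0414). The second was lost without any one of the 12 libraries other than Nutlin replicate 1 (limma adjusted p up to 0.133), with edgeR on the recovered reads, with a pseudocount of 0.25 and under scaling by total counts.

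Of the 2 further targets, STC2 encodes a secreted stanniocalcin and VLDLR a lipoprotein receptor. STC2 was at 97.8, 83.5 and 87.5 CPM in DMSO, 47.1, 43.0 and 65.8 in Nutlin, 215, 186 and 173 in PD24, 189, 158 and 193 in PD30, 146, 111 and 114 in N+PD24 and 154, 129 and 167 in N+PD30. As with PYCR1, all libraries with PD0332991 were above all without it. STC2 rose in PD24 (log2 change 1.12, SE 0.11, edgeR adjusted p = 9.41e-05), in PD30 (log2 change 0.99, SE 0.10, edgeR adjusted p = 3.63e-05), in N+PD24 against Nutlin (log2 change 1.32, SE 0.17, limma adjusted p = 0.000355) and in N+PD30 against Nutlin (log2 change 1.49, SE 0.16, edgeR adjusted p = 3.93e-05), and fell with Nutlin (log2 change -0.67, SE 0.14, edgeR adjusted p = 0.00266). VLDLR fell with Nutlin (log2 change -0.62, SE 0.13, edgeR adjusted p = 0.0031), from 11.2 ± 0.79 to 6.67 ± 0.58 CPM (SD, n = 3), and was called in no other comparison.

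**Figure D4:**
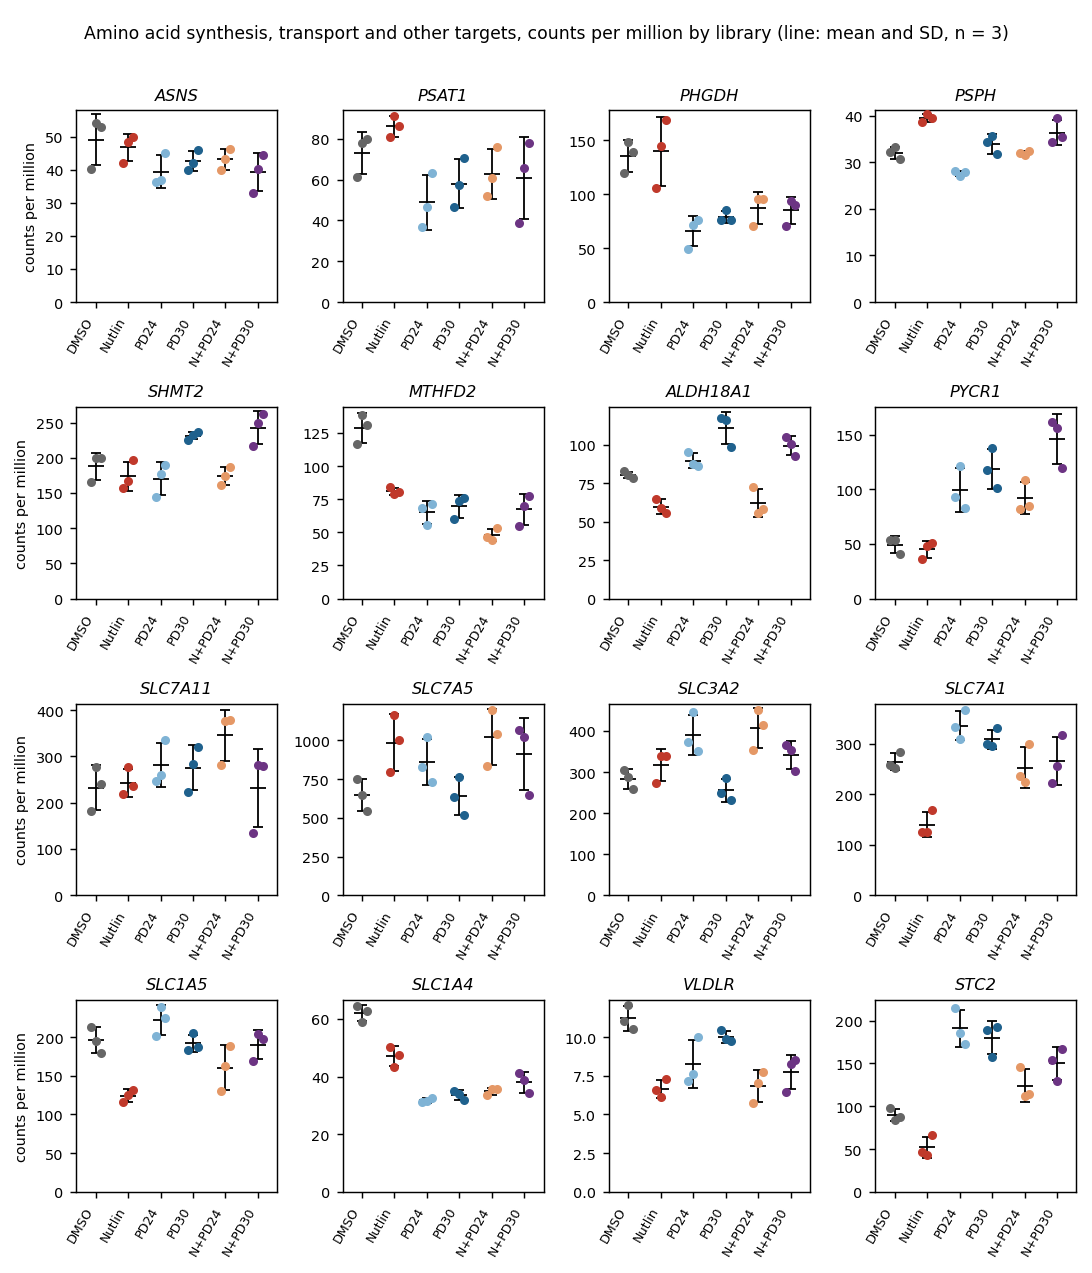
CPM of the 8 synthesis enzymes, the 6 transporters and the 2 further targets in each library (points) of the 6 groups, with the mean and SD (lines, n = 3), each panel from 0. PYCR1 and STC2 are higher in all 4 groups with PD0332991, PHGDH lower in those groups, MTHFD2 lower in every drug group, and the ASNS groups overlap.

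The 12 synthetases, which load amino acids onto tRNA, had modest changes. With Nutlin 1 rose and 2 fell (median log2 fold change -0.06), in PD30 5 rose and 0 fell (0.14), and in PD24 0 rose and 1 fell (-0.08). On top of Nutlin 4 rose and 0 fell in N+PD30 (0.20), and in N+PD24 against Nutlin 4 rose and 1 fell (0.16). PD30 against PD24 had 3 higher and 0 lower (0.24), and N+PD30 against N+PD24 had 1 higher and 1 lower (0.07). The zero counts were also 0 by DESeq2, and at an unadjusted p under 0.05 by edgeR they were 0, except for 1 fall in N+PD30 against Nutlin. No synthetase was called in an interaction, either by edgeR with PD30 (0 also with DESeq2 and unadjusted) or by limma with PD24 (0 also with edgeR on the recovered reads, 3 higher unadjusted). Over the 7 comparisons the log2 fold changes of the 12 lay between -0.73 (AARS in PD24) and 0.61 (AARS in PD30 against PD24). Of all genes tested, 26.6% rose and 28% fell with Nutlin, 22.9% and 25.4% did in PD30, and 17.5% and 20.8% in PD24. Against Nutlin, 24.3% rose and 24.7% fell in N+PD30, and 17.6% and 17.8% in N+PD24. PD30 against PD24 had 12.2% higher and 12.9% lower, and N+PD30 against N+PD24 16% and 16.4%. The interaction was positive for 12.8% with PD30 and 0.972% with PD24.

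CARS, GARS, WARS and YARS, which charge cysteine, glycine, tryptophan and tyrosine, rose in PD30 against DMSO and in both combinations against Nutlin. In PD30 their log2 fold changes were 0.32, 0.38, 0.55 and 0.22 (edgeR adjusted p = 0.0108, 0.0172, 0.000332 and 0.0477). With N+PD30 against Nutlin they were 0.50, 0.56, 0.33 and 0.42 (edgeR adjusted p = 0.00829, 0.00475, 0.0329 and 0.0193). With N+PD24 against Nutlin they were 0.37, 0.40, 0.31 and 0.32 (limma adjusted p = 0.0113, 0.0122, 0.0376 and 0.0268). Groups did not overlap in any of these 12 comparisons of a gene. This adds little, since the genes are listed because they were called, and most called genes had separate groups. Of all called stress genes described here, groups were separate for 18 of 18 in PD30 against DMSO. The counts were 18 of 20 in N+PD30 and 17 of 18 in N+PD24, each against Nutlin. No such share over all genes is given.

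Several of these calls were lost without single libraries. In PD30, the YARS call was lost without any one library except DMSO replicate 3 (edgeR adjusted p up to 0.145) and with no filter, and in N+PD30 it was lost without N+PD30 replicate 2 or 3 or Nutlin replicate 1 or 2 (edgeR adjusted p up to 0.0738). In N+PD24, the calls of WARS and YARS were lost without any one of the 6 libraries, with no filter and under scaling by total counts, and that of CARS without Nutlin replicate 2, with limma adjusted p-values up to 0.125, 0.114 and 0.0548. In N+PD30, WARS was lost without N+PD30 replicate 2 or Nutlin replicate 1 or 3, and in PD30, GARS was lost without DMSO replicate 1 (edgeR adjusted p up to 0.117 and 0.0532). WARS overlaps WDR25 and YARS overlaps S100PBP on the opposite strand.

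AARS, the alanyl-tRNA synthetase, was lower where the inhibitor had been removed. It was at 105, 99.3 and 101 CPM in DMSO, 57.6, 55.6 and 68.6 in PD24 and 94.2, 92.6 and 98.3 in PD30, and at 87.9, 72.3 and 84.1 in Nutlin, 49.0, 53.2 and 59.7 in N+PD24 and 75.9, 89.6 and 99.4 in N+PD30. Libraries from which the inhibitor had been removed were below all others. AARS fell in PD24 (log2 change -0.73, SE 0.10, edgeR adjusted p = 0.00057) and in N+PD24 against Nutlin (log2 change -0.51, SE 0.11, limma adjusted p = 0.00523), and was higher in PD30 than in PD24 (log2 change 0.61, SE 0.10, edgeR adjusted p = 0.00327) and in N+PD30 than in N+PD24 (log2 change 0.58, SE 0.12, limma adjusted p = 0.00722). All 4 calls held without each single library. AARS overlaps DDX19B on the opposite strand, and its promoter window holds the TTGCATCA shown above.

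Higher in PD30 than in PD24 were also WARS (0.43, edgeR adjusted p = 0.0108) and GARS (0.36, edgeR adjusted p = 0.0468). The first was lost without PD30 replicate 1, and the second without any library but PD24 replicate 3, with edgeR adjusted p-values up to 0.0588 and 0.147. With the replicate block, 6 more synthetases were higher, namely CARS, EPRS, IARS, NARS, SARS and YARS, with log2 fold changes of 0.22, 0.24, 0.32, 0.23, 0.23 and 0.26 and block adjusted p-values (edgeR) between 0.00801 and 0.0398. The block also took the higher calls over all genes from 1853 to 2987. NARS (asparagine) also rose in PD30 against DMSO (log2 change 0.30, SE 0.09, edgeR adjusted p = 0.0247), lost without PD30 replicate 1 or 3 or DMSO replicate 1 (edgeR adjusted p up to 0.062), and in N+PD24 against Nutlin with the block only (0.22, limma adjusted p = 0.0192).

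With Nutlin alone, SARS (serine) rose (log2 change 0.38, SE 0.10, edgeR adjusted p = 0.00797), and TARS (threonine) fell (log2 change -0.52, SE 0.10, edgeR adjusted p = 0.00139). YARS fell as well (log2 change -0.24, SE 0.09, edgeR adjusted p = 0.0489), but not without any library except DMSO replicate 1 (edgeR adjusted p up to 0.159) or with DESeq2. LARS (leucine) was at 267, 242 and 234 CPM in N+PD24 and 187, 203 and 202 in N+PD30, lower in N+PD30 (log2 change -0.44, SE 0.11, limma adjusted p = 0.0138). That call was lost without replicate 2 of either group (limma adjusted p up to 0.0638). MARS (methionine), EPRS (glutamate and proline) and IARS (isoleucine) were called in none of the 9 comparisons without the block. Their log2 fold changes lay between -0.15 and 0.32.

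The other synthetases were counted beside these 12. Of 8 further cytosolic synthetases, 2 rose and 1 fell in PD30 (QARS 0.34, VARS 0.25 and FARSB -0.49 on the log2 scale), 1 rose and 2 fell in PD30 against PD24 (QARS 0.36, FARSB -0.51 and HARS -0.44), and 1 rose and 1 fell in N+PD30 against Nutlin (FARSA 0.44 and FARSB -0.55). Of 17 mitochondrial synthetases, 0 rose and 4 fell with Nutlin (edgeR, the same with DESeq2, and 0 and 5 unadjusted), with falls of -1.42 for MARS2, -1.30 for YARS2, -1.30 for HARS2 and -0.30 for LARS2 on the log2 scale. In PD30 4 rose and 6 fell, AARS2 most (log2 change -1.03, edgeR adjusted p = 9.11e-05), and in N+PD30 against Nutlin 5 rose and 2 fell. PD30 against PD24 had 0 of these 17 higher (edgeR and DESeq2, 1 unadjusted) and 5 lower (YARS2, CARS2, MARS2, HARS2 and AARS2, between -0.71 and -0.48). Of all genes tested, 26.6% rose and 28% fell with Nutlin, so the 4 of 17 falls are near the share of all genes. In PD30 22.9% rose and 25.4% fell, and in N+PD30 against Nutlin 24.3% rose and 24.7% fell. In PD30 against PD24, 12.2% were higher and 12.9% lower. The difference between the synthetase groups was not tested.

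**Figure D5:**
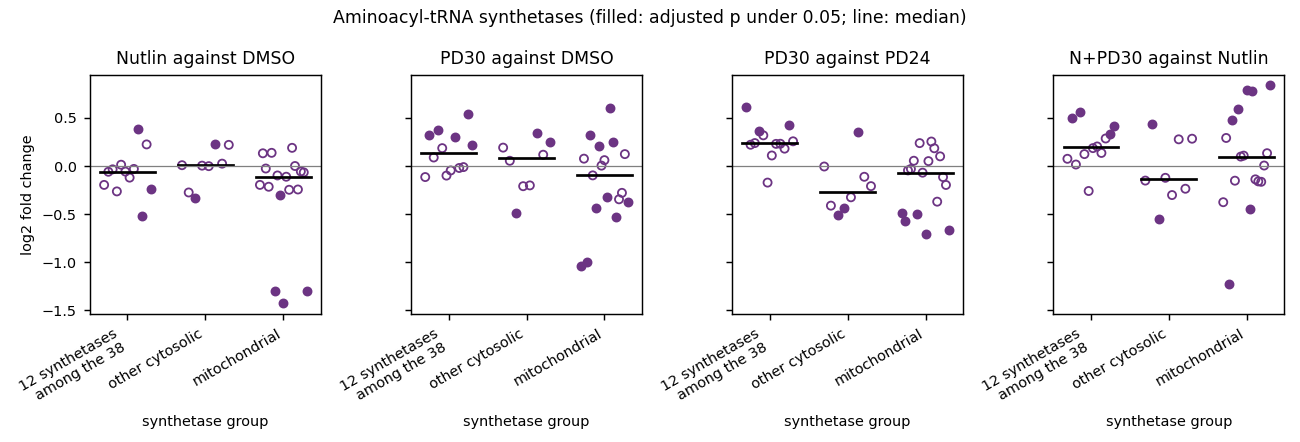
log2 fold change of the 12 synthetases among the 38, the 8 other cytosolic ones and the 17 mitochondrial ones (points, filled at an adjusted p under 0.05; line, median) in 4 comparisons. In PD30 against PD24 the median of the 12 is 0.24, and the 5 called mitochondrial genes are all below 0.

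The kinases and regulators of eIF2, 13 genes, give the step ahead of ATF4. EIF2AK3, which encodes the kinase PERK, was at 31.0 ± 1.93 CPM in DMSO, 22.7 ± 0.75 in Nutlin, 20.6 ± 2.63 in PD24 and 46.3 ± 8.75 in PD30, and at 16.7 ± 3.75 in N+PD24 and 48.8 ± 12.3 in N+PD30 (mean ± SD, n = 3 each). It was higher in PD30 than in PD24 (log2 change 1.13, edgeR adjusted p = 0.00116), in N+PD30 than in Nutlin (log2 change 1.06, edgeR adjusted p = 0.000395) and in N+PD30 than in N+PD24 (log2 change 1.36, limma adjusted p = 0.00102), and lower with Nutlin than in DMSO (log2 change -0.32, edgeR adjusted p = 0.024). The other genes that passed the test in PD30 against PD24 and in N+PD30 against N+PD24 came to 1 in each, EIF2AK1, which encodes the kinase HRI (0.46 and 0.35). With edgeR on the recovered reads, N+PD30 against N+PD24 had 1 gene of this list higher in place of 2. With Nutlin 1 of the 13 rose, EIF2AK4 (the kinase GCN2, 0.64), and 4 fell, EIF2B4 (-0.54), PPP1R15B (-0.35), EIF2AK2 (-0.34) and EIF2AK3. In PD30 4 rose and 2 fell, in PD24 1 rose and 2 fell, in N+PD30 against Nutlin 4 rose and 1 fell, and in N+PD24 against Nutlin 0 rose and 1 fell (PPP1R15B, -0.50, limma). Those last counts were the same with edgeR on the recovered reads, and 0 and 2 unadjusted. Of all genes tested, 26.6% rose and 28% fell with Nutlin, so the 4 of 13 falls are near that share. In PD30 22.9% rose and 25.4% fell, and in PD24 17.5% and 20.8%. Against Nutlin, 24.3% rose and 24.7% fell in N+PD30, and 17.6% and 17.8% in N+PD24. In PD30 against PD24 12.2% of all genes were higher, and in N+PD30 against N+PD24 16%.

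A further 19 genes linked to ATF4 in general knowledge were counted in the same way. Of these, 9 rose and 1 fell in PD30, 5 rose and 4 fell in PD24, and 8 were higher and 1 lower in PD30 than in PD24. Against Nutlin, 10 rose and 1 fell in N+PD30, 7 rose and 1 fell in N+PD24. With Nutlin 4 rose and 5 fell, near the 26.6% and 28% of all genes tested. In PD30 the shares of all genes were 22.9% and 25.4%, in PD24 17.5% and 20.8%, in PD30 against PD24 12.2% and 12.9%, in N+PD30 against Nutlin 24.3% and 24.7%, and in N+PD24 against Nutlin 17.6% and 17.8%. ADM2, which encodes a peptide hormone, rose from 2.62 ± 0.41 CPM in Nutlin to 22.3 ± 6.80 in N+PD30 (log2 change 3.06, edgeR adjusted p = 3.53e-06), and was higher in PD30 than in PD24 (1.48) and in N+PD30 than in N+PD24 (1.89). HERPUD1, a gene of protein degradation at the endoplasmic reticulum, rose in N+PD30 against Nutlin (log2 change 1.12, edgeR adjusted p = 2.19e-05), and so did SLC6A9, a glycine carrier (log2 change 2.34, edgeR adjusted p = 0.00078), and GPT2, an alanine transaminase (log2 change 1.00, edgeR adjusted p = 0.000493).

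Other genes of this list had different patterns. SQSTM1, the autophagy receptor p62, was higher where the inhibitor had been removed, at 1660.5 ± 365 CPM in PD24 and 1750.4 ± 331 in N+PD24 against 669 ± 76.4 in DMSO, 653 ± 73.3 in PD30 and 659 ± 22.8 in N+PD30. It was called in PD24 against DMSO (log2 change 1.34, edgeR adjusted p = 0.000363), in PD30 against PD24 (log2 change -1.38, edgeR adjusted p = 0.000825), in N+PD24 against Nutlin (log2 change 1.33, limma adjusted p = 0.000982) and in N+PD30 against N+PD24 (log2 change -1.51, limma adjusted p = 0.000268). GDF15, NUPR1 and SESN2, the first and the last of them also targets of p53, rose with Nutlin by 4.27, 2.29 and 1.40 on the log2 scale. NUPR1 also rose in PD30 (2.39) and in PD24 (1.49), each against DMSO, and so did GDF15 (1.24 and 1.08). SESN2 was called in neither (0.22 and -0.36). SLC38A2, a carrier of neutral amino acids, fell with Nutlin (log2 change -1.12, edgeR adjusted p = 9.97e-06), as did GPT2 (log2 change -1.24, edgeR adjusted p = 2.98e-05).

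Genes with and without the core TGATGNAA in a promoter window were counted side by side. In N+PD30 against Nutlin 6 of the 15 genes with the core rose and 0 fell, and 9 of the 17 without it rose and 2 fell, with median log2 fold changes of 0.29 and 0.33. In PD30 against PD24 4 of the 15 were higher and 1 lower, and 5 of the 17 were higher and 1 lower (medians 0.22 and 0.24). Of all genes tested, 24.3% rose and 24.7% fell in the former comparison, and 12.2% were higher and 12.9% lower in the latter. Among the 8 genes whose windows are shown, CHAC1, CEBPG, AARS and GARS were higher in PD30 than in PD24. ATF3, ASNS, SLC1A5 and IARS were not called higher there, apart from IARS in the paired fit. The core was absent from the windows of ATF4, TRIB3, DDIT3, DDIT4 and STC2, which says only that these letters are not in those stretches.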

How the data were processed

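RNA-seq was done on 18 libraries of SJSA-1 cells, 3 in each of 6 groups taken from the labels, whose numbering is also that of the replicates. Per the labels and the study's methods, the libraries were read from one end, mapped to hg19 with TopHat and Bowtie2 and counted per gene with HTSeq 0.6.0 under a reverse-strand setting. The deposited values are raw counts per gene, as the authors made them, for 5 groups. The N+PD24 columns are a deposited signal, counts that the authors divided by a DESeq2 size factor. Whole reads were recovered from 100% of these values within a tolerance of 0.01. The authors' own comparison of Nutlin with DMSO (fold changes and p-values) and their tables of normalized signal were not used. Columns repeated between tables, 6 in all, were identical. Of the 23368 gene rows, 28 are named as dates. Total counts per library lay between 12704845 and 40231041.

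Counts were tested with edgeR 4.0.16 (TMM scaling, filterByExpr, quasi-likelihood test) on the groups compared, all 4 groups for an interaction. Comparisons with N+PD24 used limma 3.58.1 with a trend, on log2(TMM-scaled CPM + 1) of genes at 0.5 CPM or more in at least 3 libraries, so that a fold change there is understated for low genes. P-values were adjusted by Benjamini-Hochberg over all genes tested, and a gene was called at an adjusted p under 0.05. Levels are CPM over the library's own total. The alternatives were DESeq2 1.42.0, edgeR on the recovered reads, no filter, scaling by total counts, a pseudocount of 0.25, the replicate number as a block and leaving out each replicate. R 4.3.3, Python 3.11.15, pandas 2.3.3 and matplotlib 3.10.9 were used.

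The fits were tested on simulated data in which all genes shared a single dispersion and the libraries were not paired. In them 100 genes above a minimum level were changed at each fold, fewer than were called in the real libraries. The rates need not hold for genes that vary more, such as TRIB3 at 189 ± 101 CPM in N+PD30 (mean ± SD, n = 3). At a true 2-fold change the test recovered 99% of changed genes for PD30 against DMSO (14961 genes) and 99% for N+PD24 against Nutlin (15236 genes). For the interactions it recovered 67% with PD30 (15226 genes) and 79% with PD24 (14556 genes), and at 4-fold 100% in each of these. The share of false calls was 6.57% for PD30 against DMSO, 3.86% for N+PD24 against Nutlin, 2.34% for the PD30 interaction and 5.79% for the PD24 interaction, so 2 of these were above the nominal 5%.

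Libraries of one group differed by more than sampling noise (mean chi-square per gene 12.9 to 51.3). The study calls the samples biological triplicates, and the labels do not describe the cultures, so p-values measure the spread between these samples. Deviations of same-numbered libraries from their group means correlated in every pair at 0.32, 0.67 and 0.35 for PD30 against PD24 and at 0.72, 0.56 and 0.57 for N+PD24 against Nutlin, so the block value stands beside results of those 2 comparisons that it changed.

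The members, the gene lists and the tests were chosen with earlier results of these data known. The genes described by library are ATF4, ATF3, DDIT3, TRIB3, CHAC1, ASNS and, in each comparison, up to 3 called genes of the largest change in either direction. Others were added after their values were seen. Promoter windows are from RefSeq (GRCh38.p14), with an entry for 32 of the 38 genes, and positions of genes are from hg19 annotation. Some results are not reported here.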

Additional observations from a re-analysis of the deposited data

Results flagged for a closer look

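The Nutlin effect differed between cells with and without the CDK4 inhibitor kept on for 9 genes (interaction with PD30, edgeR, all positive). The log2 difference was 2.83 for TRIB3 (adjusted p = 0.00308), 1.51 for DDIT4 (adjusted p = 0.0411), 1.37 for ATF4 (adjusted p = 0.00109) and 1.03 for DDIT3 (adjusted p = 0.00146). ATF5 had a difference of 0.65 (adjusted p = 0.00795), although its level was lowest where the inhibitor was kept on. Among the carriers it was 0.72 for SLC7A1 (adjusted p = 0.0120), 0.66 for SLC1A5 (adjusted p = 0.00554) and 0.60 for SLC1A4 (adjusted p = 0.0113). MTHFD2 had a difference of 0.63 (adjusted p = 0.0250). The calls of DDIT4 and MTHFD2 were lost without single libraries (adjusted p up to 0.104 and 0.0694).

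With the inhibitor removed before Nutlin, the Nutlin effect differed for SLC1A4 (log2 difference 0.54, limma adjusted p = 0.0414), a call that did not hold without any one of 11 of the 12 libraries. With the replicate number as a block, TRIB3 (limma adjusted p = 0.0265) and SLC7A1 (limma adjusted p = 0.0211) were called as well. The 2 interactions share the DMSO and Nutlin libraries, and the difference between them was not tested.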

How the results depend on the processing

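Of the values for single called genes under all alternatives, 1191 stayed past the threshold, 182 fell short of it and 0 changed direction. Most counts of the 38 genes stayed within 1.5 times the reported ones under DESeq2, edgeR on the recovered reads, no filter, scaling by total counts and a pseudocount of 0.25. Scaling by total counts gave 1 lower gene in place of 2 in N+PD30 against Nutlin. For the interaction with PD24, the count of 1 became 0 with edgeR on the recovered reads, 0 with a pseudocount of 0.25, 0 under scaling by total counts and 3 with the replicate block. The block gave 19 higher and 4 lower in PD30 against PD24, where the numbers paired the libraries, in place of 10 and 2. Calls over all genes went from 3816 to 6107 in that comparison. In N+PD24 against Nutlin, where they paired as well, the block gave 15 and 9 in place of 12 and 6, while calls over all genes went from 5401 to 8326. In the other comparisons of 2 groups, only some of the same-numbered libraries correlated best with each other. There the block lost the calls of SLC3A2 and YARS with Nutlin. It also lost those of ATF3 in N+PD30 against Nutlin and against N+PD24, and no other call. Calls of the 38 that it gained there are not listed. Over all genes, calls went from 5781 to 6793 in PD24 and from 7307 to 8097 in PD30, each against DMSO. In N+PD30 against N+PD24 they went from 4836 to 5187. They went from 8614 to 8572 with Nutlin and from 7711 to 7598 in N+PD30 against Nutlin. No filter gave 8 higher in N+PD24 against Nutlin in place of 12, and scaling by total counts also 8.

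Scaling by total counts moved the median of all genes from 0.03 to -0.10 with Nutlin, where 4 of the 38 genes then rose and 16 fell, and from -0.01 to 0.10 in N+PD30 against N+PD24, where 13 were then higher and 2 lower. All genes shifted the same way. With Nutlin, 3151 of 15766 then rose and 5439 fell, in place of 4198 and 4416. In N+PD30 against N+PD24, 3134 of 14945 were higher and 1835 lower, in place of 2385 and 2451. All genes called for the interaction with PD24 numbered 267 by limma and 116 by edgeR.

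Without each single replicate, the higher and lower counts ranged from 4 to 7 and 11 to 14 with Nutlin, 10 to 15 and 4 to 6 in PD30, 3 to 6 and 8 to 11 in PD24, and 7 to 13 and 2 to 3 in PD30 against PD24. They ranged from 14 to 20 and 1 to 3 in N+PD30 against Nutlin, 7 to 11 and 3 to 6 in N+PD24 against Nutlin, and 7 to 13 and 1 to 4 in N+PD30 against N+PD24. The positive interactions ranged from 7 to 13 with PD30 and 0 to 1 with PD24. A fit without 1 library leaves its group with 2. With 3 libraries a group, an interaction of 2-fold was missed more often than one of 4-fold on simulated data, so the genes without a call are not shown to be unaltered.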
